A study of Mus musculus with 11 samples.

Results

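Bergmann glia were taken from a single-nucleus RNA-seq series of the mouse hindbrain and cervical spinal cord as the nuclei whose transcripts matched this cell type: at least 1 UMI of Gdf10 or A2m, at least 2 UMIs of Slc1a3, at least 2 detected genes out of Slc1a3, Gria1, Aqp4, Hopx, Timp4, Septin4 and Npy, at most 1 UMI of the myelin genes Mog and Mag together, and under 0.2% of UMIs in the granule neuron genes Gabra6, Fat2, Chn2 and Etv1. A UMI is a molecular tag that counts 1 captured transcript. Of 186863 nuclei with at least 500 detected genes and under 5% mitochondrial UMIs, 696 (0.372%) met these conditions. Since the conditions used the counts of the nuclei themselves, the levels of the genes named above are given as a description and not tested.

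The study asked what the receptor chain Il12rb2, which signals for interleukin-12, does in neural cells during experimental autoimmune encephalomyelitis (EAE), the mouse model of multiple sclerosis. The libraries were made from the cerebellum, 1 hemisphere of the brainstem and the cervical cord of male mice aged 8 to 12 weeks. All mice carried both floxed Il12rb2 alleles (Il12rb2fl/fl, here fl), and in NestinCre/+Il12rb2fl/fl mice (here NestinCre) the Nestin promoter additionally drove Cre in the neural lineage, so that neurons, astrocytes, Bergmann glia and oligodendrocytes were all potential sites of deletion. EAE mice received 200 µg of a myelin oligodendrocyte glycoprotein peptide in complete Freund's adjuvant with 50 to 100 ng of pertussis toxin and were taken at day 10, and naive mice were not immunized. There were 4 libraries each of fl EAE and NestinCre EAE, 2 of fl naive and 1 of NestinCre naive. The 11 libraries came from 3 sequencing runs: EAE 1 to 3 of both genotypes in run 1, EAE 4 of both genotypes with fl naive 2 in run 2, and fl naive 3 with NestinCre naive 2 in run 3.

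Bergmann glia are the unipolar astrocytes of the cerebellar cortex. Their cell bodies lie beside Purkinje cells, and their radial processes cross the molecular layer to the pia, ensheath the synapses on Purkinje cell dendrites, clear glutamate through the transporter encoded by Slc1a3 and sense it through AMPA receptors built from the subunits encoded by Gria1 and Gria4. They keep features of radial glia, respond to sonic hedgehog released by Purkinje cells, and in inflammation can, like other astrocytes, take on reactive states and respond to interferon.

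The defining transcripts set these nuclei apart from the other astrocytes of the same libraries, as the choice of members required. Gdf10, a growth factor of the TGF-beta family, was detected in 39.5% of members, A2m, a protease inhibitor, in 89.7% and Gria1 in 91.8%. Both Gdf10 and A2m were detected in 203 members, and by the number of the 7 genes detected, 44 members held 2, 151 held 3, 233 held 4, 198 held 5, 62 held 6 and 8 held 7. Septin4 was detected in 81.3% of members and 20.7% of the 1052 other astrocytes, which were chosen by Slc6a11 or Agt UMIs without any of Gdf10 or A2m. Hopx was found in 36.2% against 7.98%, whereas Aqp4, the water channel of astrocyte endfeet, was found in 44.5% against 55.2%. Among 120475 granule-gated nuclei, Gdf10 was detected in 0.657% and A2m in 0.692%, Slc1a3 in 4.5%, Gria1 in 3.83%, Aqp4 in 2.62%, Hopx in 2.71%, Npy in 1.33%, Timp4 in 10.2% and Septin4 in 20.4%, so that the share of other astrocytes with Septin4 was at this background, at a median of 2324 UMIs per nucleus against 3383 in members and 3348.5 in the other astrocytes.

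The edges of the set were gradual. The 264 members with a single UMI of Gdf10 or A2m held a median of 9 Slc1a3 UMIs and 86.0% of them had a Gria1 UMI, against 14 UMIs and 95.4% in the 432 members with 2 or more. The 47 members with exactly 2 Slc1a3 UMIs had a Gria1 UMI in 63.8%. Just outside, 972 nuclei met every other condition but held no UMI of Gdf10 or A2m (median of 3 Slc1a3 UMIs, Gria1 in 64.2%), and 84 failed only because they held exactly 1 Slc1a3 UMI (Gria1 in 61.9%). The mature astrocyte genes Slc6a11 and Agt were present in 19.3% and 12.1% of members, and 176 members had a UMI of at least one of them.

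Summed over all members of a library and expressed as CPM, a gene's UMIs scaled to the same total in every set of nuclei, the levels of the defining genes were as follows. Gdf10 was at 151, 139, 133 and 103 CPM in the 4 fl EAE libraries, at 73.7, 124, 194 and 104 CPM in the 4 NestinCre EAE libraries (both in the order 1 to 4, as in all such series of values), at 129 and 137 CPM in fl naive 2 and 3, and at 149 CPM in NestinCre naive 2. A2m ran from 481 to 622 CPM in fl EAE, from 394 to 552 in NestinCre EAE, and from 430 to 503 over the naive libraries. For both genes the ranges of fl EAE and NestinCre EAE overlapped. Gria1 stood at 5150, 5460, 5250 and 5910 CPM in fl EAE and at 2730, 3620, 5990 and 3600 CPM in NestinCre EAE, with 5820, 4670 and 5970 CPM in the naive libraries. NestinCre EAE 3 thus had the highest Gria1 level and the other 3 NestinCre EAE libraries the lowest. Slc1a3 ran from 3110 to 3530 CPM in fl EAE, from 2390 to 3450 in NestinCre EAE and from 2860 to 3810 in the naive libraries.

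**Figure D1:**
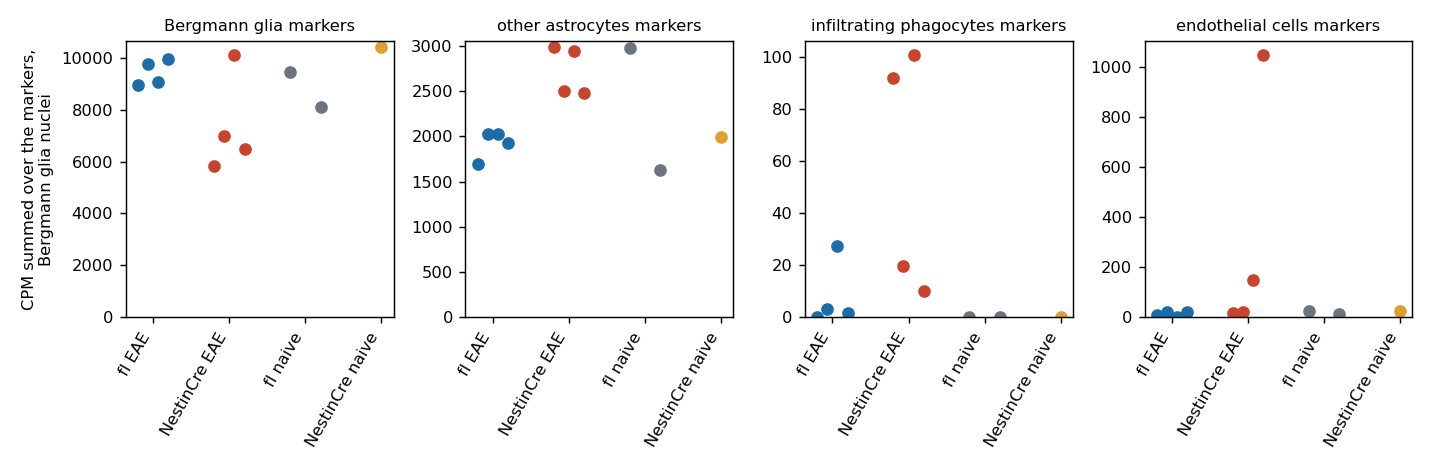
Summed CPM (vertical axes) of 4 marker lists in the Bergmann glia of each library, 1 point per library, by group; the panels are the markers of Bergmann glia, other astrocytes, infiltrating phagocytes and endothelial cells. The Bergmann glia markers lie between 5820 and 10400 CPM in every library, the astrocyte markers are higher in all 4 NestinCre EAE libraries (2480 to 2980) than in the 4 fl EAE libraries (1690 to 2030), and the endothelial markers reach 1050 in NestinCre EAE 4 alone. The astrocyte markers of fl naive 2 (2970) lie within the NestinCre EAE range.

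Several features of the libraries bear on the results. The members of a library held between 77769 UMIs (fl naive 2, 27 nuclei) and 643832 UMIs (fl EAE 4, 121 nuclei). A few deep nuclei weighed heavily: 93 members with over 6000 UMIs supplied 34.1% of all member UMIs, and 39 of them were in fl EAE 4. Doublets had not been excluded by scatter during sorting, and 39 members fell within the share of nuclei that a doublet score marked as likely doublets. Barcodes shared with another library made up 4.6% of members (32) and 4.55% of all barcodes, and no barcode was a member in 2 libraries. The libraries labelled as replicates are single samples, and nothing in the labels states how animals were assigned to them.

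The deletion itself could not be read from Bergmann glia. Il12rb2 (chr6:67268302-67353172, GRCm39, minus strand) gave 0, 0, 2 and 1 UMIs in fl EAE 1 to 4, 0 in each NestinCre EAE library, 0 and 1 in fl naive and 0 in NestinCre naive. A floor of 3 counts over a group corresponds to 2.02 CPM in fl EAE and 3.72 CPM in NestinCre EAE, so a difference was not detectable at this depth. Il12rb1, the partner chain of the receptor, gave 1 UMI in fl EAE 2 and 1 in NestinCre EAE 3, and Nes, the gene whose promoter drives Cre, gave 2 UMIs, both in NestinCre EAE 4.

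Bergmann glia were next described against the other astrocytes, a set of nuclei that was drawn apart from them on their own counts. They held higher levels of most genes known from Bergmann and radial glia, and lower levels of several genes of glutamate and GABA uptake and metabolism. Because the split was made within the same libraries, all changes in this comparison are descriptions of the 2 sets: edgeR's quasi-likelihood fit with the library as a block put 837 of 5869 tested genes higher (14.3%) and 926 lower (15.8%) at an adjusted p under 0.05, with a median log2 fold change of 0.01, and nothing was read from these shares.

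Genes of Bergmann and radial glia that the choice of members did not use were mostly higher. Of 10 measured members of this list, 9 were past the threshold in the higher direction and none in the lower. Of all tested genes, 14.3% were higher and 15.8% lower. The median log2 difference of the list was 1.19. Gria4, the AMPA receptor subunit named above, ranged from 4390 to 9600 CPM in Bergmann glia and from 1120 to 1930 CPM in other astrocytes, a log2 difference of 2.52 (SE 0.13), without overlap. Tnc, the matrix glycoprotein tenascin C, ranged from 118 to 542 CPM against 5.17 to 33.2 CPM (log2 4.21, SE 0.22). Zeb2, a transcriptional repressor, ranged from 648 to 1790 CPM against 216 to 341 CPM. Dao, which degrades D-serine, differed by 1.51, the FGF-responsive factors Etv4 and Etv5 by 1.19 and 0.82, Ptprz1, a receptor phosphatase, by 1.18 and its ligand Ptn by 1.05 on the log2 scale. Sox9 was 0.80 higher, and Sox2, a factor shared by all astroglia, differed by 0.09 and did not pass. Wif1, a secreted Wnt inhibitor that was too low to be tested, had UMIs in the members of all 11 libraries (3.24 to 25.7 CPM) and none in other astrocytes, where 3 counts over all libraries correspond to 0.577 CPM.

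The neurotransmitter receptors went both ways. Of 12 measured, 5 were higher and 3 lower (median 0.16), where 14.3% of all tested genes were higher and 15.8% lower. Besides Gria4, the higher ones were Adra1a, an adrenergic receptor through which noradrenaline acts on these cells (1.17), the endothelin receptor Ednrb (0.78) and the GABA-A receptor subunits Gabrb1 (0.70) and Gabra2 (0.65). The lower ones were the metabotropic receptor Grm5 (-1.82) and the AMPA subunits Gria3 (-0.93) and Gria2 (-0.80), the latter being the subunit that makes AMPA receptors impermeable to calcium. In the summed counts Bergmann glia therefore held more Gria4 and less Gria2 and Gria3 than other astrocytes. Markers of other cell types also differed between the sets in most libraries, with overlapping ranges. Those of inhibitory interneurons summed to 79.1 to 580 CPM in Bergmann glia and 241 to 1270 CPM in other astrocytes. Those of oligodendrocyte progenitor cells summed to 382 to 1100 CPM and 725 to 1150 CPM. Their part in the gene differences between the sets was not tested.

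In the Notch and hedgehog list 4 of 13 genes were higher and 2 lower, with a median of 0.03. Of all tested genes, 14.3% were higher and 15.8% lower. The count of lower genes was near that share and is not read as a trait of the list. Gli1, a hedgehog target, ranged from 46 to 182 CPM against 5.21 to 56.2 CPM (log2 1.90), and Ptch1, the hedgehog receptor that is itself a target, from 543 to 1050 CPM against 315 to 721 CPM (log2 0.99). Ranges of both genes overlapped between the sets, each library being compared with itself in the fit. The other higher genes were Notch1 (0.47) and Gli2 (0.33), and the lower ones the hedgehog coreceptor Boc (-1.30) and the Notch ligand Dner (-0.83).

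Transport and metabolism differed more modestly, beside 14.3% of all tested genes that were higher and 15.8% that were lower. In the glutamate and GABA list, 4 of 10 were lower and none higher, with a median of -0.48: the glycine transporter Slc6a9 (-0.86), the serine and alanine exchanger Slc7a10 (-0.82), the GABA transaminase Abat (-0.58) and the glutamine transporter Slc38a3 (-0.58). Glul, glutamine synthetase, differed by -0.15 and did not pass. Of 10 ion, water and gap junction genes, the chloride channel Clcn2 (1.40) and its partners Mlc1 (0.88) and Hepacam (0.53) were higher, and the potassium channels Kcnk1 (-1.12) and Kcnj10 (-0.58) were among those lower, with a median of -0.09. Growth factor genes were higher for Ptn and Fgfr1 (0.65) and lower for 6 of 12, including Nrg3 (-1.33), Erbb4 (-0.84) and Fgfr3 (-0.65), with a median of -0.27.

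Lipid genes were lower for Hmgcs1 (-0.72), Fads1 (-0.54) and Fads2 (-0.48) and higher for Abca1 (0.30), with a median of -0.35 over 9. Glucocorticoid-responsive genes were higher for 6 of 11 and lower for 1 (median 0.45), led by Tsc22d3 (1.20) and Zbtb16 (0.91), with Sgk1 at -0.51. The single measured chemokine, Ccl25, was lower (-0.60). Beside these lists, 14.3% of all tested genes were higher and 15.8% lower. None of the 2 interferon, 1 inflammatory and 1 reactive astrocyte genes that could be measured in this fit was past the threshold.

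Among genes in none of the lists, the large differences with the same sign in all 11 libraries included the thick filament protein gene Mybpc1 (334 to 1030 CPM against 0 to 149, log2 4.75, SE 0.41), Abi3bp, a matrix protein (255 to 685 against 2.97 to 58.1 CPM, log2 4.64, SE 0.23), and Kitl, the ligand of the receptor Kit (116 to 288 against 0 to 35.7 CPM, log2 3.75, SE 0.23). The glycolytic enzyme gene Hk2 (log2 4.01, SE 0.27), the organic anion transporter gene Slco4a1 (4.60, SE 0.26), the uronyl sulfotransferase gene Ust (3.71, SE 0.15), Ttll3 (3.57, SE 0.14), Odad2 (3.50, SE 0.19) and Whrn (3.40, SE 0.22) were also higher. In the other direction stood Gpc5, a glypican (197 to 2330 against 4130 to 8450 CPM, log2 -2.47, SE 0.24), Nrp1, the semaphorin and VEGF coreceptor (9.72 to 65.5 against 98.1 to 177 CPM, log2 -2.33, SE 0.21), and Cyp26b1, which degrades retinoic acid (6.74 to 48.1 against 71.3 to 166 CPM, log2 -2.08). Levels of these last 3 did not overlap between the sets. Nmur2, Vav3, Arhgef28, Pcdh15, Adgrl2, Kcnn3 and Gm973 completed the lower genes, from -2.43 to -2.03.

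**Figure D2:**
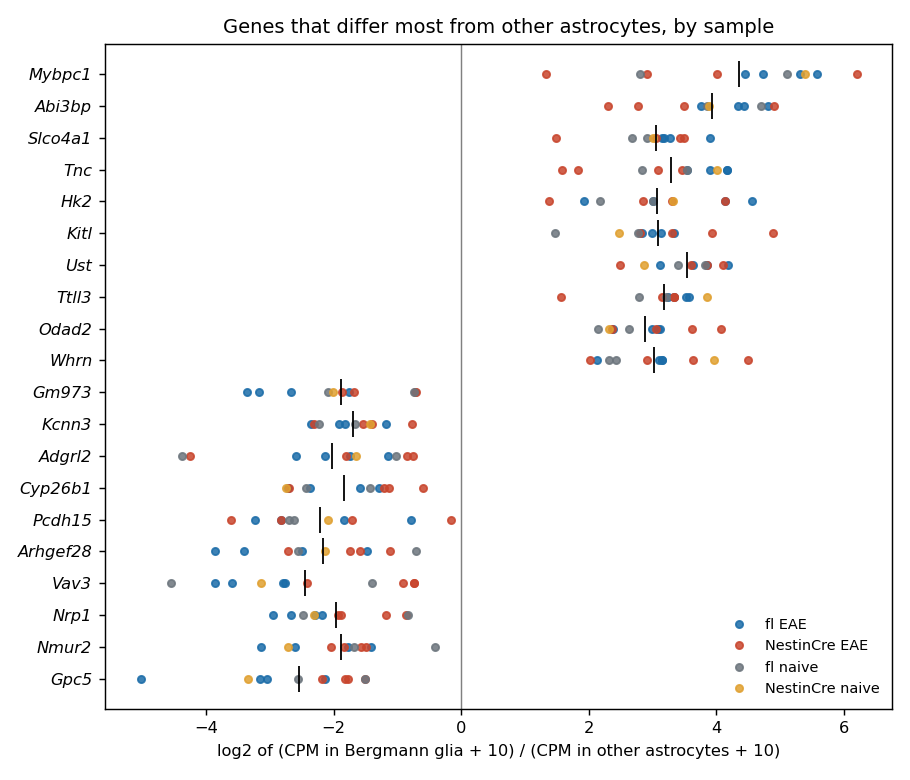
For the 10 genes higher and the 10 lower with the largest log2 fold changes among those called with a group mean of at least 50 CPM and the same sign in all 11 libraries, log2 of the ratio of CPM in Bergmann glia to CPM in other astrocytes after adding 10 CPM to both (horizontal axis), with 1 point per library coloured by group and a bar at the mean. All 11 points of a gene lie on the same side of 0 because the genes were chosen so, with Mybpc1, Abi3bp and Slco4a1 on the higher side and Gpc5, Nmur2 and Nrp1 on the lower.

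Bergmann glia made up a smaller share of nuclei in NestinCre EAE than in fl EAE. In fl EAE 1 to 4 their share of nuclei was 0.385, 0.553, 0.417 and 0.665%. NestinCre EAE 1 to 4 held 0.322, 0.24, 0.323 and 0.279%. The groups did not overlap. Means were 0.505% ± 0.129 (SD, n = 4) and 0.291% ± 0.0397 (SD, n = 4), a ratio of 0.576 with p = 0.0286 in an exact two-sided permutation test, the smallest value that 70 assignments allow. Leaving out any 1 NestinCre EAE library gave exact permutation p-values from 0.0571 to 0.0857, at ratios from 0.555 to 0.61. Within run 1 the ratio was 0.653, with an exact permutation p of 0.1, the smallest that 3 libraries against 3 can give, and run 2 held 1 library of each genotype.

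The share depended on what it was compared with. Other astrocytes also made up a lower share in NestinCre EAE (0.401% ± 0.205 against 0.744% ± 0.188, SD, n = 4 each, ratio 0.539, exact permutation p = 0.114). As a share of Bergmann glia and other astrocytes together, Bergmann glia stood at 44.4% in NestinCre EAE and 40.7% in fl EAE (ratio 1.09, exact permutation p = 0.657). Granule-gated nuclei made up 52.9 to 76.4% of a library. Per 100 granule-gated nuclei there were 0.743 Bergmann glia in fl EAE and 0.455 in NestinCre EAE. In tissue dissected as a mixture, fewer cells, a different yield of nuclei and less RNA per nucleus cannot be told apart. Nor can lower levels of the genes that chose the members. Gdf10, A2m, Slc1a3 and Gria1 summed to a median of 6745 CPM (5820 to 10100) in NestinCre EAE members. In fl EAE members the median was 9400 CPM (8960 to 9950). Their part in the share was not tested.

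Naive libraries held 0.134% (95% exact interval 0.0884 to 0.195, counting error only) and 0.398% in fl naive 2 and 3 and 0.418% (0.321 to 0.536) in NestinCre naive 2. The share in fl naive 2 was below every other library and that in fl naive 3 was within the range of fl EAE. The study describes the naive fl library sequenced with a single EAE pair, by its run fl naive 2, as an internal control for batch effects. It left all naive libraries out of its published analysis. In fl mice, the ratio of EAE to naive was 1.9 (0.505% ± 0.129, n = 4, against 0.266% ± 0.186, n = 2), with an exact permutation p of 0.2, where the smallest possible was 0.0667. Without fl naive 2 the ratio was 1.27 and without fl naive 3 it was 3.77.

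**Figure D3:**
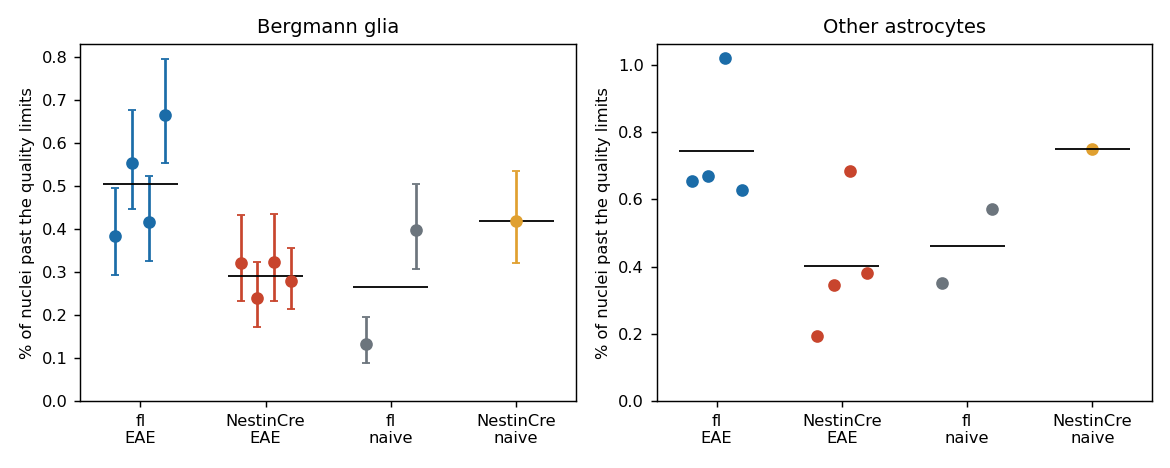
Share of nuclei past the quality limits (vertical axes, %) that were Bergmann glia (left, with 95% exact binomial intervals) or other astrocytes (right), 1 point per library, with a line at the group mean. Bergmann glia lie between 0.385 and 0.665% in fl EAE and between 0.24 and 0.323% in NestinCre EAE, without overlap; in the naive groups fl naive 2 is the lowest point at 0.134%.

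Between genotypes in EAE, 5 genes were higher in NestinCre Bergmann glia and none was lower. The comparison used summed counts per library, edgeR's quasi-likelihood test with the run as a covariate, and Benjamini-Hochberg adjustment over 5180 genes, of which 0.0965% were called at an adjusted p under 0.05, with 397 at an unadjusted p under 0.05 and a median log2 fold change of 0.01. The 5 genes were C4b, a complement component, Nlrc5, the transactivator of MHC class I genes, Irgm2, an interferon-inducible GTPase, Vav3, a guanine nucleotide exchange factor, and Elmo1, an adaptor in engulfment and Rac activation. In all 5, the 4 NestinCre EAE libraries lay above the 4 fl EAE libraries, as did those of 2.18% of tested genes.

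The promoters of 2 of the interferon-inducible GTPases are shown because they carry the letters of both elements through which interferons act. The table of RefSeq promoters (GRCm38.p6) was searched on both strands in the 250 bases before each start for the gamma-activated sequence TTCNNNGAA and for the interferon-stimulated response element, spelled as GAAA, any pair of bases and GAAA. Irgm2 (chr11:58214727-58214976, plus strand) and its neighbour Igtp (chr11:58199306-58199555, plus strand), another GTPase of the same family, held 1 match of each; matches are in capitals.
Irgm2: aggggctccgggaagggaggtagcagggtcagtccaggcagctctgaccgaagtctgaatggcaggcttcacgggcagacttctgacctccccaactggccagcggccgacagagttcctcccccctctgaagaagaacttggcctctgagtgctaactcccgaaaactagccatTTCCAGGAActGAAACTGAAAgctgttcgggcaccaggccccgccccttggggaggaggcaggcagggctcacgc
Igtp: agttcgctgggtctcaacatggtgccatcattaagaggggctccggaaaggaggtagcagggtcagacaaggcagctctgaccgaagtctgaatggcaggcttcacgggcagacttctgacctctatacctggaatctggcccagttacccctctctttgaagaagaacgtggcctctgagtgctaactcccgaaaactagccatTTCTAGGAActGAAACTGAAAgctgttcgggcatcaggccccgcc
The matches began 75 and 64 bases before the start of Irgm2 and 45 and 34 bases before that of Igtp. Over 32851 windows of this length, 7.02% held the first motif and 2.98% the second. Vav3 held neither before any of its 3 starts, and Elmo1 held 2 of the first before 1 of its 2 starts. Of 41 genes on the list of interferon response and antigen presentation, 32 had an entry and 12 of them (37.5%) held the second motif, against 3.46% of all 27025 genes. The first motif was held by 8 of these 32 genes and by 8.13% of all genes. On the list of inflammatory genes named in the study, 2 of the 6 with an entry held the second and 0 the first. Nlrc5 and C4b were not analysed here for motifs. A match describes letters and not a bound site.

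C4b (chr17:34947354-34962912, GRCm39, minus strand) stood at 12.6, 6.48, 20.5 and 7.77 CPM in the libraries fl EAE 1 to 4, against 285, 111, 180 and 57.3 CPM for NestinCre EAE 1 to 4, with 51.4 and 9.56 CPM in fl naive and 22.7 CPM in NestinCre naive. Each NestinCre EAE library was above all 7 others, narrowly so for NestinCre EAE 4 over fl naive 2. By edgeR this was a log2 fold change of 3.63 (SE 0.42, adjusted p = 0.00536). C4b has a near-identical neighbour, C4a, so reads could be split between the copies. Of 17 alternative fits in which C4b could be tested, 16 called it. The exception was the fit without fl EAE 2 (log2 3.32, adjusted p = 0.0762 by edgeR). C4b passed the filter on low counts, given below, through NestinCre EAE alone. It was too low to test in members with 2 or more UMIs of Gdf10 or A2m, or in those without Agt or Slc6a11 UMIs. The fits in run 1, without fl EAE 4 and without NestinCre EAE 4 (log2 3.92, 3.92 and 3.93) all rested on run 1. Here and in the tallies below they are counted separately.

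Nlrc5 (chr8:95160984-95253900) stood at 8.4, 0, 20.5 and 1.55 CPM in fl EAE and at 235, 78.6, 108 and 67.4 CPM in NestinCre EAE, with 0 and 6.37 CPM in fl naive and 3.24 CPM in NestinCre naive. The lowest NestinCre EAE library was above the highest library of any other group. EdgeR gave 4.14 on the log2 scale (SE 0.58, adjusted p = 0.0212), and 11 of 18 alternatives called it.

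Irgm2 (chr11:58090444-58113615) stood at 0, 13, 10.2 and 0 CPM in fl EAE and at 120, 45.8, 237 and 101 CPM in NestinCre EAE, with 12.9 and 9.56 CPM in fl naive and 3.24 CPM in NestinCre naive. NestinCre EAE 2 was the lowest of its group and still above all 7 other libraries. In edgeR's test the log2 change was 4.53 (SE 0.66, adjusted p = 0.0212), and 8 of 16 alternatives called it. The gene models of Irgm2 and Igtp (chr11:58089840-58098417) overlap on the same strand, so their counts depend on how reads in the overlap were assigned. C4b, Nlrc5, Irgm2 and Vav3 passed the filter on low counts (37.7 CPM in at least 4 libraries) only through the NestinCre EAE libraries, 0 of 4 fl EAE libraries reaching it, so that they had to differ in order to be tested.

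The first 3 genes, chosen by these same libraries, are described next by the nuclei that held them, without a test. C4b was found in 36.3% of 190 NestinCre EAE members and 4.0% of 350 fl EAE members, Nlrc5 in 27.9% and 2.29%, and Irgm2 in 27.4% and 2.0%. At least 1 of them was detected in 83.7, 43.9, 71.4 and 32.8% of NestinCre EAE members by library and in 8.33, 6.32, 13.5 and 4.13% of fl EAE members. In granule-gated nuclei of the same libraries, at a lower depth, the share was 20.6, 4.83, 7.6 and 9.64% in NestinCre EAE and 0.654, 0.495, 1.95 and 0.655% in fl EAE. UMIs of these genes were thus also more frequent in NestinCre EAE outside Bergmann glia, at shares below those in members of the same library. Over the group, 105 of 190 NestinCre EAE members held at least 1, of which 51 held 1 gene, 39 held 2 and 15 held all 3, whereas 26 of 350 fl EAE members (7.43%) held any. In naive mice the corresponding shares were 7.45% of 94 fl members and 9.68% of 62 NestinCre members.

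Vav3 (chr3:109247656-109593015) stood at 8.4, 16.2, 30.7 and 35.7 CPM in fl EAE and at 180, 177, 64.7 and 138 CPM in NestinCre EAE, with 0 and 82.9 CPM in fl naive and 26 CPM in NestinCre naive (log2 2.56, SE 0.40, adjusted p = 0.0344 by edgeR). Fl naive 3 was thus above NestinCre EAE 3. Of 116 Vav3 UMIs in NestinCre EAE, 64 came from members with over 6000 UMIs, and with those members left out the log2 fold change was 2.52. The call was kept in 9 of 17 alternatives.

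Elmo1 (chr13:20274428-20792523) stood at 109, 74.5, 71.7 and 46.6 CPM in fl EAE and at 262, 393, 137 and 256 CPM in NestinCre EAE, with 141 and 274 CPM in fl naive and 84.3 CPM in NestinCre naive (log2 1.90, SE 0.32, adjusted p = 0.0489 by edgeR). It was the call that rested most on single nuclei. Of 212 Elmo1 UMIs in NestinCre EAE, 169 came from members with over 6000 UMIs, and 54 of the 60 in NestinCre EAE 2 came from 1 member with 38818 UMIs. An Elmo1 UMI was found in 20.0% of NestinCre EAE and 14.6% of fl EAE members, below the 29.4 to 41.0% of granule-gated nuclei in the EAE libraries, so these shares are not read as a difference. Among members with at most 6000 UMIs the levels were 51.7 ± 23.7 CPM in fl EAE and 80.1 ± 39.4 CPM in NestinCre EAE (SD, n = 4 each), overlapping, with a log2 fold change of 0.76 and an adjusted p of 0.506 by edgeR, and 5 of 19 alternatives called it.

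**Figure D4:**
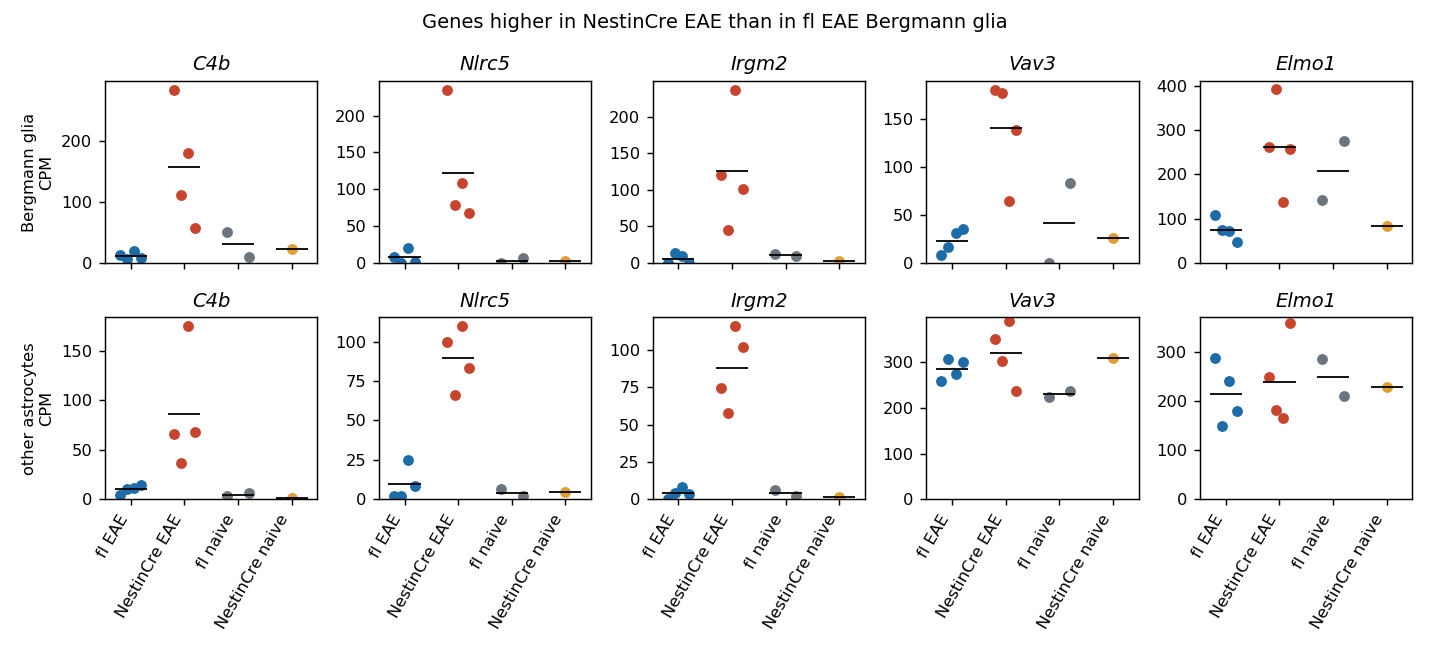
CPM (vertical axes, from 0) of the 5 genes called between genotypes in EAE, in Bergmann glia (top row) and other astrocytes (bottom row) of each library, with a line at the group mean. In Bergmann glia the 4 NestinCre EAE points are above the 4 fl EAE points for all 5 genes; in other astrocytes this holds for C4b (37.1 to 175 against 4.83 to 14.6), Nlrc5 and Irgm2 but not for Vav3 or Elmo1.

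The number of calls moved with single libraries and with the deep nuclei. Without fl EAE 2 there were 0 calls. Without fl EAE 1, fl EAE 3, fl EAE 4, NestinCre EAE 1 or NestinCre EAE 4 there were 1 or 2. Without NestinCre EAE 2 there were 30 and without NestinCre EAE 3 there were 64. The fits without fl EAE 4 or NestinCre EAE 4 rested on run 1 alone. Among members with at most 6000 UMIs 56 genes were called, 51 higher (1.44% of those tested) and 5 lower (0.141%).

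Genes of the interferon response and antigen presentation were low in all groups but NestinCre EAE. Summed over the list of 41 genes, Bergmann glia held 126, 308, 290 and 171 CPM in fl EAE 1 to 4 and 2830, 413, 1930 and 1550 CPM in NestinCre EAE 1 to 4, with 244 and 341 CPM in fl naive and 201 CPM in NestinCre naive. NestinCre EAE 2 was the lowest of its group and lay above all libraries of the other groups. Only 3 of the 41 genes passed the filter on low counts: Irgm2, which was called, and Stat2 and Rnf213, at log2 1.97 and 1.63, which were not.

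Most of this list could be tested only without the filter, in a fit in which 1.54% of 17548 genes were called higher and 0.194% lower. There 26 of 41 were higher and none lower, 40 had a positive log2 fold change and the median was 3.51 beside -0.03 over all genes, or 3.15 with the 6 genes that had no UMI in fl EAE set to their bound against a floor of 3 counts over the group. With members over 6000 UMIs also left out, a choice made after seeing the data, 20 of 40 were higher (0.870% of all genes) and none lower (0.122%). Dropping the filter also lowered the p-values of genes tested either way. By edgeR, C4b went from an adjusted p of 0.00536 to 1.92e-17, and Etv4 from 0.172 to 1.68e-05. Their log2 fold changes hardly moved (3.63 to 3.55 and -1.59 to -1.69). Calls without the filter, here and below, are therefore not comparable with those of the main fit. Many genes of the interferon list had no UMI in several fl EAE libraries, and their values are given beside the fits. Igtp stood at 0, 0, 3.41 and 0 CPM in fl EAE against 55.2, 6.55, 43.1 and 60.6 CPM in NestinCre EAE. Its levels in NestinCre EAE 2 and fl EAE 3 rested on very few UMIs, out of 152710 and 292903 UMIs of all genes in their members. The order of these libraries is therefore not read as a difference. Cd274, which encodes the ligand PD-L1, stood at 8.4, 0, 0 and 4.66 CPM against 59.8, 13.1, 21.6 and 37.1 CPM, and Cd74, the invariant chain of MHC class II, had no UMI in fl EAE and was at 32.2, 19.6, 43.1 and 16.8 CPM in NestinCre EAE.

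The study itself named 9 inflammatory genes, a list that was chosen on these samples and is not independent evidence. Of these, 3 were tested and 2, Nlrc5 and C4b, were higher, where 0.0965% of all tested genes were. Both passed the filter on low counts through NestinCre EAE alone. The MHC class I genes were too low for the test. B2m, the light chain of MHC class I, stood at 21, 22.7, 10.2 and 3.11 CPM in fl EAE and at 106, 6.55, 93.5 and 350 CPM in NestinCre EAE. H2-K1, a heavy chain, stood at 8.4, 35.6, 30.7 and 15.5 CPM against 96.7, 19.6, 79.1 and 205 CPM. For both genes NestinCre EAE 2 lay within the range of fl EAE and the other 3 libraries above it. Both were highest in NestinCre EAE 4, where endothelial markers stood at 1050 CPM against 18.4 to 151 CPM in the rest of its group.

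Reactive astrocyte genes followed the same libraries. Their sum over 23 genes was 164, 172, 236 and 151 CPM in fl EAE and 1810, 478, 1090 and 744 CPM in NestinCre EAE, with 334 and 175 CPM in fl naive and 425 CPM in NestinCre naive. NestinCre EAE lay above every other library, and the naive libraries reached values between the EAE groups. Of 4 tested genes C4b was higher, where 0.0965% of all tested genes were. Gfap, the intermediate filament gene of reactive astrocytes, stood at 0, 13, 37.6 and 18.6 CPM in fl EAE and 184, 105, 151 and 70.7 CPM in NestinCre EAE, but also at 141 CPM in fl naive 2 and 127 CPM in NestinCre naive 2, with a log2 fold change of 2.71 and an adjusted p of 0.0549 by edgeR. Cp, the ferroxidase ceruloplasmin, was at log2 3.26 with the same adjusted p. Gfap and Cp, like C4b, passed the filter on low counts through NestinCre EAE alone.

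Genes that mark Bergmann and radial glia did not pass the test in either direction. None of 9 was called, 2 had a positive log2 fold change, and the median was -0.39 beside 0.01 over all genes. Gria4 stood at 9340, 7940, 8070 and 9600 CPM in fl EAE and at 4390, 6150, 6860 and 5660 CPM in NestinCre EAE, with 7910 and 6860 CPM in fl naive and 8670 CPM in NestinCre naive (log2 -0.57, adjusted p = 0.397 by edgeR). Etv4 stood at 160, 175, 140 and 182 CPM in fl EAE and at 13.8, 65.5, 93.5 and 53.9 CPM in NestinCre EAE (log2 -1.59, adjusted p = 0.172 by edgeR). Both genes, and Ptprz1 and Tnc, were lower in each NestinCre EAE library than in any fl EAE library, as were 2.82% of the tested genes. Gria4, Ptprz1, Etv4 and Tnc were called lower without the filter, where 0.194% of all genes were, and Etv4 was the only gene that DESeq2 called lower (0.0193% of those tested) and was among the 5 lower genes in members with at most 6000 UMIs. Without members holding Agt or Slc6a11 UMIs, a choice made after seeing the data, none of the 9 was called, the median was -0.14, and Etv4 was at log2 -1.05 with an adjusted p of 0.524 by edgeR.

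The remaining lists held no call after the filter on low counts. Their medians were -0.15 over 12 neurotransmitter receptors, 0.28 over 10 genes of glutamate and GABA uptake and metabolism, -0.01 over 12 ion, water and gap junction genes, -0.04 over 14 Notch and hedgehog genes, -0.01 over 12 growth factor genes, -0.06 over 9 lipid genes and 0.11 over 10 glucocorticoid-responsive genes, with -0.27 for the single chemokine tested. These medians lay between -0.27 and 0.28. Without the filter, where 1.54% of all genes were called higher and 0.194% lower, 2 of 5 chemokines, Ccl2 and Cxcl10, were higher, as were Slc6a11, Slc7a11, Fkbp5, Dner and Gria3, and Gria4 was lower. Cxcl10, a chemokine induced by interferon gamma, stood at 0, 3.24, 0 and 0 CPM in fl EAE and at 221, 13.1, 57.5 and 10.1 CPM in NestinCre EAE. With nuclei of at most 6000 UMIs, where 1.44% of genes were called higher, Slc1a2 and Slc6a11 were higher.

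**Figure D5:**
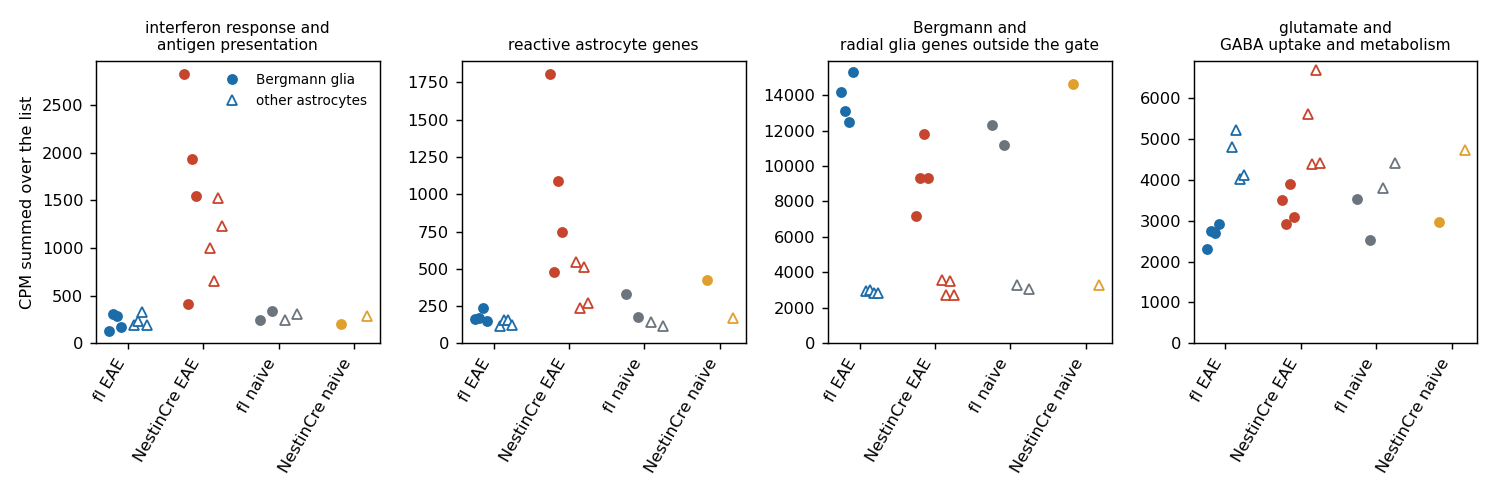
CPM summed over 4 gene lists (vertical axes, from 0) in Bergmann glia (filled circles) and other astrocytes (open triangles) of each library, by group. The interferon list lies between 413 and 2830 CPM in NestinCre EAE Bergmann glia and between 126 and 341 CPM in all other Bergmann glia; the Bergmann and radial glia list lies between 7160 and 11800 CPM in NestinCre EAE and between 12500 and 15300 CPM in fl EAE, with 12300 and 11200 CPM in fl naive 2 and 3 and 14600 CPM in NestinCre naive 2.

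Among markers of other cell types in the same nuclei, those of astrocytes were apart between genotypes and the others below overlapped. The 7 astrocyte markers summed to 1690 to 2030 CPM in fl EAE and 2480 to 2980 CPM in NestinCre EAE, without overlap, and 28.6 to 37.2% of NestinCre EAE members had a UMI of Agt or Slc6a11 against 14.7 to 31.4% in fl EAE. In the naive libraries these 7 markers summed to 2970 and 1630 CPM in fl naive 2 and 3 and to 1990 CPM in NestinCre naive 2. The level of fl naive 2 was thus within the range of NestinCre EAE. The 5 markers of infiltrating phagocytes were at 0, 3.24, 27.3 and 1.55 CPM in fl EAE and at 92.1, 19.6, 101 and 10.1 CPM in NestinCre EAE, and at 0 in all naive libraries. Endothelial markers were at 0 to 22.7 CPM in fl EAE and at 18.4, 19.6, 151 and 1050 CPM in NestinCre EAE 1 to 4, microglial markers at 103 to 202 and 118 to 273 CPM, oligodendrocyte markers at 213 to 847 and 419 to 697 CPM, and T and NK cell markers at 1.55 to 47.8 and 0 to 3.37 CPM. Purkinje cell markers were at 84, 185, 195 and 82.3 CPM in fl EAE and at 377, 733, 35.9 and 57.3 CPM in NestinCre EAE. They were at 154 and 708 CPM in fl naive 2 and 3 and at 143 CPM in NestinCre naive 2. NestinCre EAE 1 and 2 were thus above all fl EAE libraries in these markers, and NestinCre EAE 3 and 4 below them. Without NestinCre EAE 4, 2 genes were called (0.0394% of those tested), 1 of them C4b at a log2 fold change of 3.93. Nlrc5 (3.95, adjusted p = 0.0517 by edgeR), Irgm2 (3.98), Vav3 (2.97) and Elmo1 (1.72) were not called. With the run as a term, fl EAE 4 was then alone in run 2, so this fit rested on run 1. It cannot tell the loss of NestinCre EAE 4 from the loss of run 2. Without members holding Agt or Slc6a11 UMIs, 3 genes were called (0.0839%), among them Nlrc5 at 4.51 with an adjusted p of 0.0422 by edgeR, while C4b, Irgm2 and Vav3 were too low to be tested and Elmo1 was not called (1.60, adjusted p = 0.378). In those members C4b (2.1 to 9.54 CPM in fl EAE, 29.4 to 422 in NestinCre EAE) and Irgm2 (0 to 9.5 against 31.2 to 342) did not overlap between genotypes, whereas Vav3 did, at 7.81 to 29.4 CPM in fl EAE and 0 to 184 in NestinCre EAE. The part of the other markers in the gene differences was not tested.

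The genotype difference in EAE was then compared between Bergmann glia and other astrocytes in one fit over both sets. No gene of 6885 was called in edgeR's quasi-likelihood test, 455 were at an unadjusted p under 0.05, and DESeq2 called 1. The difference of the log2 fold changes was 0.65 (SE 0.70) for C4b, 0.81 (SE 0.67) for Nlrc5 and 0.20 (SE 0.91) for Irgm2, whose levels in other astrocytes were also apart between genotypes. C4b ran from 4.83 to 14.6 CPM in fl EAE astrocytes and from 37.1 to 175 CPM in NestinCre EAE astrocytes. Nlrc5 ran from 2.13 to 24.8 against 65.9 to 110 CPM and Irgm2 from 0 to 8.27 against 57.7 to 116 CPM.

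The genotypes overlapped for Vav3 and Elmo1 in other astrocytes. There Vav3 ran from 259 to 307 CPM in fl EAE and from 237 to 389 CPM in NestinCre EAE, and Elmo1 from 149 to 288 against 166 to 360 CPM. The difference between Bergmann glia and other astrocytes was 2.35 (SE 0.43, adjusted p = 0.0857) for Vav3 and 1.61 (SE 0.35, adjusted p = 0.216) for Elmo1 by edgeR, so neither passed. The smallest p-values belonged to Cp (2.90, adjusted p = 0.0797), Rgs6, a regulator of G protein signalling (1.92), Ccdc141 (2.15) and Shroom4 (2.22) in the higher direction, and to Spag16 (-2.45, adjusted p = 0.0965), Suclg1, Tesk2, Aifm3 and Zfp983 in the lower. Among members and astrocytes with at most 6000 UMIs 24 genes passed, 22 of them (0.451% of those tested) in the direction of a larger increase in Bergmann glia, and without the filter on low counts 98 passed, 88 of them in that direction (0.461%).

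Summed over the interferon list, other astrocytes ran from 193 to 328 CPM in fl EAE, from 655 to 1530 CPM in NestinCre EAE and from 250 to 311 CPM in naive mice. Of the 11 genes of that list tested for a difference between the sets 0 passed, and their median difference was 0.06.

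EAE itself was compared with the naive state in fl mice. One gene of 8763 (0.0114%) was called: Nnat, the imprinted proteolipid neuronatin (chr2:157401879-157404573), stood at 105, 87.5, 58 and 55.9 CPM in fl EAE and at 566 and 86.1 CPM in fl naive 2 and 3, with a log2 fold change of -3.51 (SE 0.49, adjusted p = 0.0225 by edgeR), a test against a single naive library. Fl naive 3 lay within the range of fl EAE, and NestinCre EAE libraries were at 110, 118, 187 and 47.2 CPM and NestinCre naive at 120 CPM. Because the run was a term of the fit, this contrast rested on run 2, where fl naive 2, with 27 members, was the only naive library, assumed to vary like the others. A total of 538 genes were at an unadjusted p under 0.05, and the median log2 fold change was 0.14.

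Glucocorticoid-responsive genes were at higher summed levels in the EAE libraries than in fl naive, without a call. Their sum was 2040, 2540, 1860 and 2830 CPM in fl EAE and 1030 and 1400 CPM in fl naive, 3400, 2500, 2210 and 2540 CPM in NestinCre EAE and 2020 CPM in NestinCre naive. Naive fl libraries lay below all EAE libraries, and NestinCre naive lay within the range of fl EAE. Tsc22d3, the glucocorticoid-induced leucine zipper, stood at 290, 263, 232 and 387 CPM in fl EAE and at 141 and 121 CPM in fl naive. Zbtb16, another glucocorticoid target, stood at 445, 356, 167 and 582 CPM against 51.4 and 63.7 CPM. Hif3a stood at 168, 227, 157 and 295 CPM against 12.9 and 188 CPM, the smallest p among genes with a positive change (log2 4.44, SE 0.88, adjusted p = 0.372 by edgeR). Tsc22d3 and Zbtb16 did not overlap between fl EAE and fl naive, and Hif3a did. Run 1, which held fl EAE 1 to 3, had no naive library, so most of these levels are compared across runs.

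Interferon genes were not called by EAE in either genotype. Of 27 tested, 0 passed in each. Fitted medians are not given for them, since many had no UMI in a naive library. In fl mice the summed levels over the list were 126 to 308 CPM in EAE and 244 and 341 CPM in the naive libraries. In NestinCre mice the sums were 413 to 2830 CPM in EAE and 201 CPM in the single naive library. No gene of 8763 passed in edgeR or DESeq2 for that contrast, with 456 at an unadjusted p under 0.05 in edgeR, and the naive library shared no run with NestinCre EAE. For the interaction of genotype and EAE, 0 genes passed in edgeR's test and 441 were at an unadjusted p under 0.05. The estimates were 2.30 (SE 1.32) for C4b, 4.90 (SE 2.30) for Nlrc5, 5.83 (SE 2.21) for Irgm2, 4.07 (SE 0.89, adjusted p = 0.449) for Vav3 and 3.46 (SE 0.69, adjusted p = 0.449) for Elmo1. The lowest p-values with a negative estimate were those of Kcnmb2, a subunit of calcium-activated potassium channels (-6.07, adjusted p = 0.365), Wdr17, Ranbp3l, Tnc (-2.26, adjusted p = 0.692) and Gabrg3. Only 3 naive libraries entered this fit. With the run as a term, the naive part of these interaction estimates was NestinCre naive 2 against fl naive 3, a single library of each genotype.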

How the data were processed

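Nuclei sorted on Hoechst were captured in droplets and sequenced in 3 runs. The deposited files are UMI counts per gene and nucleus, which the authors made with Cell Ranger against GRCm39 (version 7.0.0 for run 1 and 6.0.2 for runs 2 and 3 per the file headers, 6.0.2 in the submitters' processing notes), with intronic reads counted. The 11 libraries held 25827 genes, 13120 to 22951 barcodes and 40761007 to 86063464 UMIs each. The v3.1 kit is named in the series design and v2 in a protocol.

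The members and gene lists were chosen with earlier results of these data known. Nuclei were kept at 500 genes and under 5% mitochondrial UMIs. Other astrocytes needed at least 1 UMI of Agt or Slc6a11, none of Gdf10 or A2m, 2 UMIs of Slc1a2 and 2 detected genes of 7, with the same limits on myelin and granule genes. Counts were summed per library and set of nuclei, filtered by filterByExpr, scaled by TMM and tested with edgeR 4.0.16 (glmQLFit, glmQLFTest) in R 4.3.3 with the run as a covariate, or the library as a block against other astrocytes, over 6 comparisons with Benjamini-Hochberg adjustment at 0.05. Only EAE libraries entered the genotype fit. The fits of EAE against naive took all 11 libraries, and the lone NestinCre naive library was assumed to vary like the other groups. Shares were tested by exact permutation in scipy 1.17.1. Doublet scores came from Scrublet in scanpy 1.11.5, at 0.8% per 1000 barcodes. DESeq2 1.42.0 was an alternative. The SE of an edgeR log2 fold change was derived from its test, as the absolute change divided by the square root of the F statistic. Scripts were tested on simulated data. Intervals are Clopper-Pearson at 95%. P-values of the permutation tests and of the genotype fit measure the spread between libraries. Against other astrocytes they measure how the difference within a library varied between libraries. With the run as a term, the fits of EAE against naive and of the interaction matched each naive library exactly. Their p-values therefore hold only the spread of the EAE libraries.

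Named genes were those called, at most 10 in each direction by fold change with a group mean of at least 10 CPM (50 CPM and the same sign in 11 libraries against other astrocytes), the 5 of smallest p in each direction where under 5 passed, the genes of the gate, Il12rb1, Il12rb2 and Nes, and members of the lists. List genes beyond the 4 of highest level, and the promoters, were picked after their values were seen. Replicate numbers did not pair the EAE libraries: deviations of same-numbered libraries correlated at 0.11, -0.0476, -0.114 and -0.219. Some genes of the lists are not reported here by name.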

Additional observations from a re-analysis of the deposited data

Results flagged for a closer look

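In 50 groups of 4 libraries checked, 5 summed marker levels in Bergmann glia had 1 library far from the other 3. The rule is meant to mark about 1 group in 20 by chance when values vary normally. Several of these sums rest on few UMIs, for which that rate need not hold. Markers of infiltrating phagocytes stood at 27.3 CPM in fl EAE 3 and at 0 to 3.24 CPM in the other fl EAE libraries. Endothelial markers stood at 1050 CPM in NestinCre EAE 4 against 18.4 to 151 CPM in the rest of that group. In the same library, T and NK cell markers stood at 3.37 CPM, which is 1 UMI, where the others of the group had 0, and granule cell markers at 226 CPM against 285 to 295 CPM. Ependymal markers were at 0 in NestinCre EAE 2 and at 18.4 to 21.6 CPM in the other NestinCre EAE libraries. The part of these markers in the gene differences was not tested beyond the fits without the library or the nuclei concerned. Between genotypes, the fit without NestinCre EAE 4 rested on run 1 alone.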

How the results depend on the processing

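The lower share of Bergmann glia in NestinCre EAE (ratio 0.576) kept its direction and its side of the threshold with a stricter gate, without nuclei over 6000 UMIs, without likely doublets, without nuclei holding Agt or Slc6a11 UMIs, per granule-gated nucleus and in edgeR's test of nuclei counts. It turned to 1.09 as a share of Bergmann glia and astrocytes together. It did not pass within run 1 (0.653) or with the replicate block (0.576, sign-flip p = 0.125, the smallest 4 exact pairs allow), and leaving out 1 library gave 0.534 to 0.644.

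Between genotypes in EAE, the 5 calls became 18 in DESeq2, 305 without the filter on low counts, 56 with at most 6000 UMIs, 12 without the run term, 2 without likely doublets, 2 in run 1, 4 with the replicate block, 0 with the stricter gate (2 UMIs of Gdf10 or A2m) and 0 to 64 on leaving out 1 library. With choices made after seeing the data they became 3 without Agt or Slc6a11 UMIs and 163 without both the filter and nuclei over 6000 UMIs. Under the stricter gate C4b, Nlrc5, Irgm2 and Vav3 were too low to be tested. The log2 fold changes of the 5 genes kept their sign in every alternative that could test them. There 49 values kept the call and 38 lost it. Among these alternatives, the fits in run 1, without fl EAE 4 and without NestinCre EAE 4 rested on the same libraries of run 1.

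For EAE against naive in fl mice, the 1 call became 2 in DESeq2, 26 without the filter, 12 with at most 6000 UMIs, 0 with the stricter gate, 0 without Agt or Slc6a11 UMIs, 0 without the run term, 0 with the replicate block in place of the run term and 0 to 4 on leaving out 1 library (0 without fl EAE 2, NestinCre EAE 1 or NestinCre EAE 2, 4 without fl EAE 4). Arsb, which was not called, turned to 0.28 without Agt or Slc6a11 UMIs. In NestinCre mice the 0 calls became 28 without the filter. The interaction had 71 without the filter, 1 with at most 6000 UMIs and 0 to 15 on leaving out 1 library (15 without NestinCre EAE 3). The difference from other astrocytes had 1 in DESeq2, 98 without the filter, 24 with at most 6000 UMIs and 0 to 10 on leaving out 1 library (10 without NestinCre EAE 3). Against other astrocytes all counts stayed within 1.5 times the 1763 calls. Other causes of these changes were not tested. Between genotypes the replicate block lost the calls of Vav3 and Elmo1 and of no other gene named as called. Not run, since with the run as a term the contrast could not be estimated, were EAE against naive in fl mice without fl naive 2, EAE against naive in NestinCre mice without any 1 naive library, and the interaction without fl naive 3 or NestinCre naive 2.

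Depth limited low genes: with 41 to 121 nuclei a library in the genotype comparison, the filter corresponded to 37.7 CPM and 3 of 41 interferon genes passed it.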
